A study of Mus musculus with 26 samples.

Results

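The Zfp-named zinc finger genes are mouse genes whose symbol is Zfp followed by a number. Members were all such lines of the expression table, except Zfp36 (a CCCH zinc finger protein that binds RNA), that had a value in all 26 samples and a mean of at least 15 RPM (reads of a gene per 1000000 reads of the library) in at least 1 of 13 groups. This gave 215 members among 25146 complete gene lines, and 125 further complete Zfp-named lines stayed under the level. The values that chose the members were therefore their highest group means, with a median of 39.1 RPM. Just inside the threshold were Zfp53 with 15.1 RPM, Zfp11 with 15.2 RPM and Zfp287 with 15.3 RPM, and just outside were Zfp438 with 14.97 RPM, Zfp141 with 14.8 RPM and Zfp961 with 14.6 RPM. Because a member had to reach the level in 1 group only, most counts of members are given beside those of all genes. These are all genes tested or all chosen by the same level.

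The libraries were 3' RNA-seq libraries from sorted mouse cells, 2 per group, made to follow BLIMP1-expressing cells of 4 lineages. BLIMP1 (Prdm1) is itself a zinc finger repressor that marks germ cell precursors, fetal gut epithelium, photoreceptor precursors and plasma cells. The d2 PGCLC group held primordial germ cell-like cells made in culture from a C57BL/6 and 129 line with Blimp1-mVenus, stella-ECFP and Rosa26-rtTA, sorted as mVenus-positive at day 2. All other groups came from homozygous EGFP-BLIMP1 knock-in mice on C57BL/6. Intestinal epithelium was EPCAM-positive, GFP+ at E16.5 (E16.5_emIE) and labelled BLIMP1-negative at P3 and P14 (P3_IE, P14_IE). Retinal photoreceptor precursors were GFP+ at P0, GFP+CD73- or CD73+ at P4, and CD73+ at P6 and P10. B cells were B220+ spleen cells of mice aged 8 to 10 weeks. Blast (GFP- CD138-), prePB (GFP+ CD138-) and PB (GFP+ CD138+) were sorted from splenic B cells after 3 days with IL-4 (2 ng/mL) and LPS (10 ng/mL), PB being plasmablasts. Strain and reporter go with the PGCLC lineage and cannot be told apart from it. The labels do not state if both replicates of a group derive from different animals or cultures. The spread on which the p-values rest is that of these samples and may be technical.

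Most Zfp genes encode C2H2 zinc finger proteins, in which tandem fingers each hold a zinc ion and read a few bases of DNA. Many carry an N-terminal KRAB box, which binds TRIM28, and TRIM28 brings the histone methyltransferase SETDB1 and HP1 proteins to silence transposable elements and some genes. Others have a SCAN or BTB domain for pairing, or no DNA-binding role, and a few members act in RNA, ribosome or spindle biology.

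Depth ran from 1.72 to 6.04 M reads per library, so that 15 RPM stood for 25.8 to 90.6 reads and 1 read for 0.166 to 0.583 RPM. Prdm1, the gene of BLIMP1, was at 46.2 and 71.3 RPM in P3_IE and 21.4 and 16.9 RPM in P14_IE, the groups labelled BLIMP1-negative, against 93.5 and 107 RPM in E16.5_emIE and 28.5 and 24.5 RPM in d2 PGCLC. It was at 2.31 to 10.5 RPM in B cells and Blast, 135 to 242 RPM in prePB and PB, and 80.4 to 502 RPM in retina. Thus transcript was present in the groups labelled negative, and at P3 above d2 PGCLC. Of the photoreceptor genes, Crx, Nrl, Otx2, Rcvrn and Nr2e3 summed to 2473 RPM or more in each retinal library and to at most 55.9 RPM elsewhere. Intestinal genes summed to 3496 to 5449 RPM in intestine, B-cell genes to 1934 to 10128 RPM in the B lineage, germ cell precursor genes to 800 and 809 RPM in d2 PGCLC, and plasmablast genes to 15143 and 15809 RPM in PB. The plasmablast list was at 253 and 258 RPM in Blast but at 1996 and 2178 RPM in B cells, of which Igj, the immunoglobulin joining chain, made 1758 RPM on average. Some members may share reads with near copies, which was not tested. Of 121 members with at least 5 low values, 82 had only whole numbers of reads in them and 12 had whole numbers in under 50%. Over all genes, 82.9 to 91.3% of a library's low values of at least 1 read were whole. Zfp747 (0 of 6 low values whole), Zfp808 (1 of 9), Zfp534 (3 of 24), Zfp369 (2 of 5) and Zfp641 (4 of 9) are among these 12, so their levels are less certain. Levels of single genes are compared over samples, not with those of other single genes. Medians and shares of the members are set beside those of other genes. For bulk samples, fewer cells of a type and less RNA per cell cannot be told apart.

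In RPM, Zfp-named genes stood highest in the retina and lowest in plasmablasts, but as a share of the complete gene lines plasmablasts were not lowest. Summed over the 215 members, the level was 8461 to 10752.5 RPM in the 10 retinal libraries. It was 4559 to 4674 RPM in d2 PGCLC, 4992 and 5008 RPM in B cells, and 2833 to 3873 RPM over the 6 intestinal libraries. In the stimulated B lineage it was 3308 and 3338 RPM in Blast, 2678 and 2720 RPM in prePB, and 2141 and 2237 RPM in PB. Thus every retinal library held more than every other library, and the 4 groups of the B lineage did not overlap with each other. The 5 members with the highest means did not set this order between retina and the rest, since without them the retinal sums were 7395 to 9309 RPM and the largest other sum was 4130 RPM in B cells.

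**Figure D1:**
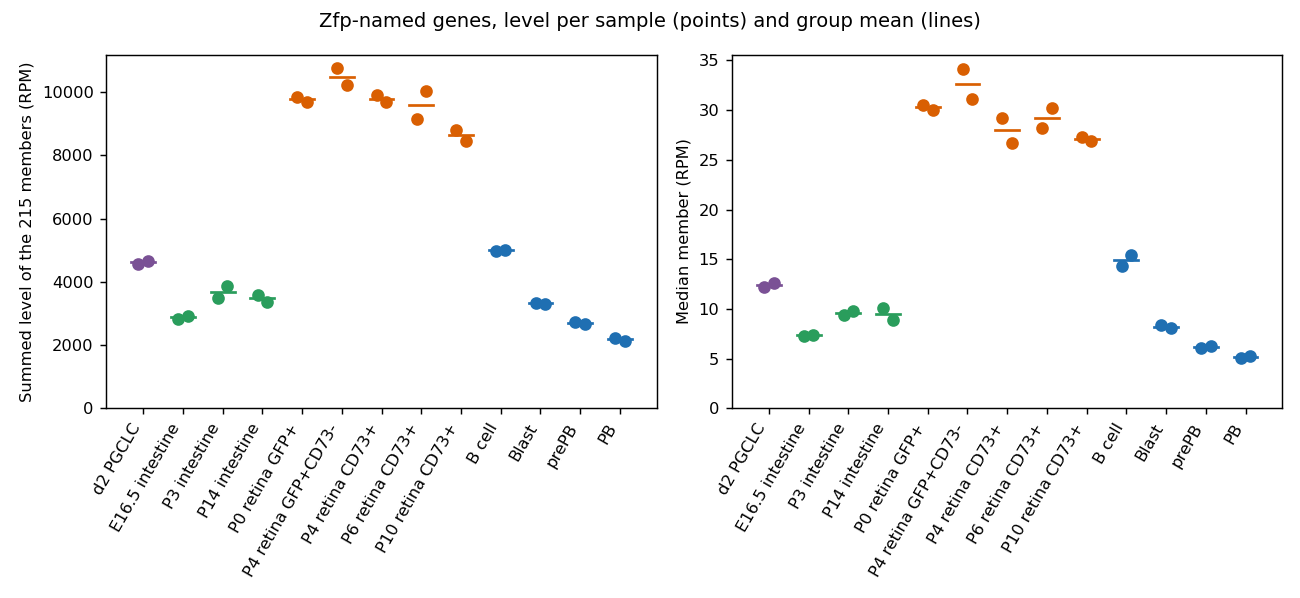
Summed level (left) and median level (right) of the 215 members in RPM, by group. Points are the 2 libraries of a group and lines their mean; the 10 retinal libraries sum to between 8461 and 10752.5 RPM, and PB is lowest with 2141 and 2237 RPM.

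The median member lay at 26.7 to 34.1 RPM in retinal libraries, where the median of all other genes chosen by the same level lay at 31.0 to 34.8 RPM. In the other lineages members lay well under those genes. The medians were 12.2 to 12.6 RPM for members against 22.1 to 23.4 RPM for other genes in d2 PGCLC, 7.31 to 7.41 against 21.2 to 21.9 RPM in E16.5 intestine, 14.4 to 15.4 against 21.8 to 22.6 RPM in B cells, and 5.10 to 5.27 against 11.2 to 11.6 RPM in PB. At a mean of 15 RPM or more there were 163 to 178 members in a retinal group, 106 in B cells, 94 in d2 PGCLC, 70 in P3 intestine, 66 in P14 intestine, 61 in Blast, 47 in E16.5 intestine, 44 in prePB and 34 in PB. In all 13 groups 21 members were at this level, and 23 members were at it in 1 group only. The same level chose the members, and all genes were not counted by group, so these counts only describe the members.

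The highest of the 13 group means fell in a retinal group for 175 members (81.4%), in the B lineage for 21 (9.77%), in d2 PGCLC for 11 (5.12%) and in intestine for 8 (3.72%). Of all 12038 genes at the level threshold, 47.8% were highest in retina, 18.4% in the B lineage, 13.4% in PGCLC and 20.4% in intestine; retina has 5 of the 13 groups. Within retina, the highest group was P4 GFP+CD73- for 54 members, P0 for 44, P6 for 32, P10 for 32 and P4 CD73+ for 13. In the B lineage it was the resting B cell for 17 members, Blast for 3, prePB for 1 and PB for 0. All genes were not counted for these splits within a lineage. Of the 122 Zfp-named lines under the threshold with a value above 0, 54.9% were highest in retina, against 46.2% of all 9420 genes under it.

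Lineage preference was tested with limma in 1 fit of all 26 samples. A gene was called preferred in a lineage when the average of its group means was at least 1 higher on the log2(RPM + 1) scale than in each of the other 3 lineages, with an adjusted p under 0.05. Retina was preferred by 106 of 215 members (49.3%), while 22.3 percent of all 14131 genes tested and 22.2% of those at the level threshold were called. PGCLC was preferred by 5 members (2.33%; 7.01 percent of all genes), intestine by 2 (0.93%; 10.1 percent of all genes) and the B lineage by 4 (1.86%; 5.8 percent of all genes). A simple count gave a similar picture: in 96 members (44.7%) every retinal sample exceeded every other sample, against 17.3 percent of all genes tested. The retinal count depended on scaling. It was 65 with median-of-ratios scaling (16.1% of all genes) and 54 with quantile normalization (14% of all genes).

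**Figure D2:**
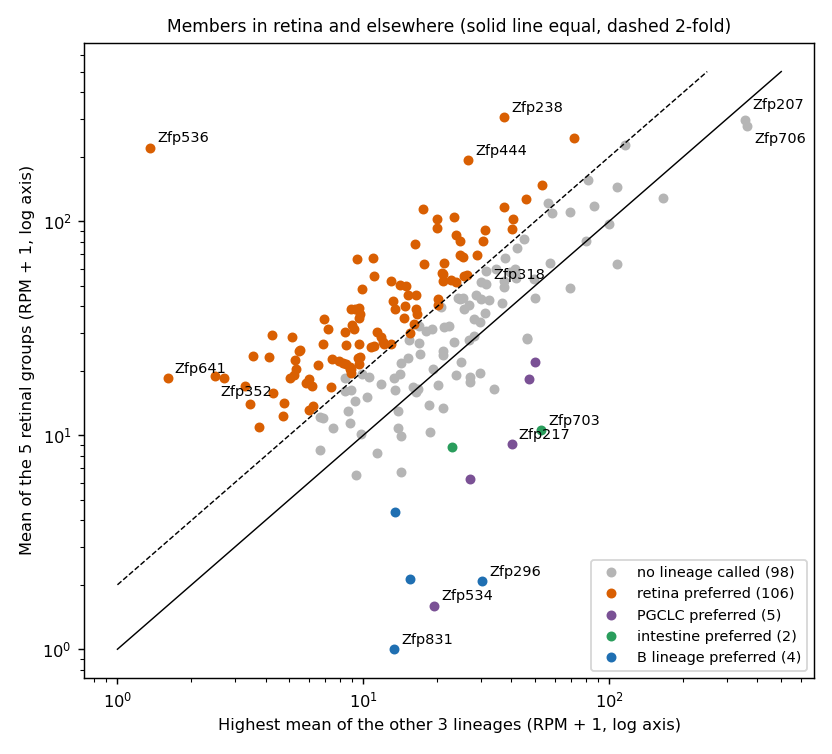
Mean of the 5 retinal groups against the highest mean of the other 3 lineages for each of the 215 members, both as RPM + 1 on log axes. Colors give the preferred lineage; the 106 retina-preferred members lie above the line of equality and Zfp536 lies farthest from it.

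Zfp536 was the member most restricted to retina. It encodes a brain-enriched zinc finger protein and lies at chr7:37318023-37774039 (mm10). Its level was 116 and 112 RPM at P0, 234 and 203 RPM in P4 GFP+CD73-, 253 and 231 RPM in P4 CD73+, 294 and 339 RPM at P6, and 184 and 230 RPM at P10. No other library exceeded 1.204 RPM, and both d2 PGCLC, both E16.5 and both prePB libraries were listed at 0. The smallest of its 3 log2 differences was 7.32 ± 0.15 (SE), against the B lineage (adjusted p = 4.27e-17). Zfp238, now named Zbtb18, encodes a BTB zinc finger repressor needed for cortical neuron development, and lies at chr1:177442351-177450764. It held 435 and 405 RPM at P0 and 237 and 219 RPM at P10, while d2 PGCLC had 16.9 and 17.1 RPM and intestine 17.3 to 26.1 RPM. B cells were the next highest group with 119 and 87.1 RPM. The smallest difference of Zfp238 was 3.67 ± 0.12, against intestine (adjusted p = 7.49e-15).

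The promoters of 7 leading members with an entry in the RefSeq promoter table are shown: 4 that lead the retinal group (Zfp536, Zfp238, Zfp641, Zfp444), Zfp78, which rose most in the maturing retina, Zfp534 from d2 PGCLC and Zfp296 from the B lineage. Each run covers 250 bases before to 50 bases after the start of 1 RefSeq transcript on GRCm38.p6, 300 bases in all, 5′ to 3′ on the gene's strand. Genes have further starts: for Zfp536 the start shown lies inside the span of the gene given above and not at its end. Capitals mark matches on either strand to 3 motifs that were searched: TAATCC (bound by CRX and OTX2), AGNGAAAG (the core of the BLIMP1 motif) and ATGCAAAT (the octamer bound by OCT factors).
Zfp536 (chr7:37769703-37770002, minus strand): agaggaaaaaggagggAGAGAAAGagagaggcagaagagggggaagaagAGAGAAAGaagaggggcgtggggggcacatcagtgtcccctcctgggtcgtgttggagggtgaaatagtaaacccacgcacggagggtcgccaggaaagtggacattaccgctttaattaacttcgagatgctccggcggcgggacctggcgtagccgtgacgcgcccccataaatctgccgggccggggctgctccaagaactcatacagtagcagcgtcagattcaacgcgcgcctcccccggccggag
Zfp238 (chr1:177442101-177442400, plus strand): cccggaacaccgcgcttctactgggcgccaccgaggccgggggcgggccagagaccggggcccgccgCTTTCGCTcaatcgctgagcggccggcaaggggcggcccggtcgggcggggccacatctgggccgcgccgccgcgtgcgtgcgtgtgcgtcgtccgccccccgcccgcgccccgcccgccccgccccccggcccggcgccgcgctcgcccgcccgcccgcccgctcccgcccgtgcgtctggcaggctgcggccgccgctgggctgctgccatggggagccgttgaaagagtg
Zfp641 (chr15:98296112-98296411, minus strand): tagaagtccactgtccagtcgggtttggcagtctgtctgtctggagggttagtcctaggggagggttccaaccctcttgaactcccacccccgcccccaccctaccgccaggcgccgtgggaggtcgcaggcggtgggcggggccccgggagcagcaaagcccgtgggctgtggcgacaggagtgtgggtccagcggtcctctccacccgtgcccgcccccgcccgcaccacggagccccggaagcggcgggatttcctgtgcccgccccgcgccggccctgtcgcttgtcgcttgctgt
Zfp444 (chr7:6172263-6172562, plus strand): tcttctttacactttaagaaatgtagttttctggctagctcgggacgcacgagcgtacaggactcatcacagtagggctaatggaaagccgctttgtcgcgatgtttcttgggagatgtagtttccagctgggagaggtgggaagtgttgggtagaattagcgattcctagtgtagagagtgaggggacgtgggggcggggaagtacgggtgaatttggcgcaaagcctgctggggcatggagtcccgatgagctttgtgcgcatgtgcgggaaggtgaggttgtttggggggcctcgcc
Zfp78 (chr7:6363058-6363357, plus strand): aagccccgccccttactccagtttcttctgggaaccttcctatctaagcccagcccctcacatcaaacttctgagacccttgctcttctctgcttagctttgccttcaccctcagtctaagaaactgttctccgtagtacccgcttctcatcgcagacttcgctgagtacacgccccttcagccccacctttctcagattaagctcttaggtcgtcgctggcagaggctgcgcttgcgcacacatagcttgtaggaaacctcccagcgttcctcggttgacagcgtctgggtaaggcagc
Zfp534 (chr4:147702582-147702881, minus strand): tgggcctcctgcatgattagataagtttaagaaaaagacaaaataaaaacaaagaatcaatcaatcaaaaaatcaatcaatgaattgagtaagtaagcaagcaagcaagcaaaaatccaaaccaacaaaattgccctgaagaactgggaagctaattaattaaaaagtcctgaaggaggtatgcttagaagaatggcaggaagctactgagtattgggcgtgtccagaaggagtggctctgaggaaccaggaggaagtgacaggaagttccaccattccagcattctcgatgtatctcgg
Zfp296 (chr7:19577037-19577336, plus strand): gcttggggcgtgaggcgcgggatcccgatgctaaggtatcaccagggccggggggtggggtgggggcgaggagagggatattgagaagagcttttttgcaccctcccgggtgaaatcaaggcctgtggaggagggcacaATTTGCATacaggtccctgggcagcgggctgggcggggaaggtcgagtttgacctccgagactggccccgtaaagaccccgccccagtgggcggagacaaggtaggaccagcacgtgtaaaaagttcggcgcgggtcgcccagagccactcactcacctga
The Zfp536 window held 2 matches to AGNGAAAG, the Zfp238 window 1 match to it on the other strand, and the Zfp296 window 1 octamer on the other strand. The windows of Zfp641, Zfp444, Zfp78 and Zfp534 held 0 matches. Over the 175 members with a promoter in the RefSeq table, TAATCC was found in 6.29%, AGNGAAAG in 7.43% and ATGCAAAT in 2.86%. Over all 18305 promoters of the table the shares were 6.59%, 8.06% and 1.69%, and over the 84 retina-preferred members 5.95%, 8.33% and 0%. A match describes these letters and shows no binding.

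The other 4 leaders of the retinal group were low outside it. Zfp444, which has a SCAN domain, ranged from 142 RPM through a median of 190 RPM to 250 RPM over the 10 retinal samples, and the highest value elsewhere was 29.1 RPM in d2 PGCLC (smallest difference 2.84 ± 0.20, adjusted p = 1.97e-11). Zfp580 ranged from 47.0 RPM through 65.1 RPM to 87.8 RPM in retina and reached 9.16 RPM outside it. Zfp641 ranged from 7.01 RPM through 16.6 RPM to 37.4 RPM in retina, with a highest value elsewhere of 1.92 RPM. Zfp352, known from the early cleavage embryo, ranged from 5.36 RPM through 19.3 RPM to 26.3 RPM in retina, and was listed at 0 in all intestinal and B-lineage libraries and in 1 of the 2 d2 PGCLC libraries, the other having 2.97 RPM. In none of these 4 did retinal and other samples overlap.

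Well-known factors were among the retina-preferred members as well. Zfp462 and Zfp521, both large regulators of neural and progenitor cells, averaged 85.6 and 35.7 RPM in retina, 22.7 and 8.66 RPM in d2 PGCLC, and under 0.3 RPM in the B lineage. Zfp711, an X-linked gene of cognitive development, averaged 22.5 RPM in retina and 2.55 RPM in intestine, the next lineage. Zfp281, a repressor studied in pluripotent cells, averaged 147 RPM in retina, 52.5 RPM in d2 PGCLC, 37.8 RPM in the B lineage and 13.1 RPM in intestine. Zfp143, a promoter-binding activator, and Zfp148 averaged 39.4 and 91.1 RPM in retina and at most 19.1 and 39.4 RPM in another lineage.

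Few members preferred the other lineages. In d2 PGCLC, Zfp534 held 16.2 and 20.49 RPM against 1.01 to 5.49 RPM in intestine and at most 2.51 RPM in the rest (smallest difference 2.38 ± 0.36, adjusted p = 1.60e-05). Zfp217, which binds the LSD1 and CoREST repressor complex, held 37.3 and 40.8 RPM there, 27.3 and 24.6 RPM in B cells and at most 13.0 RPM in retina or intestine (1.95 ± 0.25 against intestine, adjusted p = 1.77e-06). Zfp568, a KRAB protein that represses a placental Igf2 transcript, held 48.9 and 43.0 RPM, with 30.5 and 30.7 RPM in P0 retina next (1.43 ± 0.27 against retina, adjusted p = 1.98e-04). Zfp808 held 25.5 and 26.6 RPM and at most 13.1 RPM elsewhere, and lost its call with either other scaling. Zfp7 held 57.1 and 40.4 RPM, and without d2 PGCLC replicate 1 its smallest difference was 0.93 and not called. Of these 5, 4 have a KRAB box by pattern.

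In intestine, Zfp703, a transcriptional corepressor of the NET family, was the clear case. It held 18.9 and 19.5 RPM at E16.5, 69.5 and 66.0 RPM at P3, and 67.4 and 68.4 RPM at P14, while retina lay between 2.86 and 20.0 RPM (smallest difference 2.30 ± 0.22, adjusted p = 2.17e-06). Zfp747 held 19.4 to 25.0 RPM in intestine, but B cells with 18.3 and 24.3 RPM overlapped with that range, and its call was lost with both other scalings and with a pseudocount of 5 RPM.

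In the B lineage, Zfp831 was nearly exclusive: B cells held 44.9 and 38.5 RPM, the 6 stimulated libraries 0.567 to 5.78 RPM, and outside the lineage all libraries were listed at 0 except P3 intestine replicate 1 with 0.448 RPM. Its smallest difference was 2.47 ± 0.26 (adjusted p = 5.80e-06). Zfp296, known from pluripotent and reprogrammed cells, was level across the lineage with 23.8 to 39.1 RPM in all 8 libraries, above d2 PGCLC with 6.41 and 11.5 RPM (1.64 ± 0.32, adjusted p = 1.92e-04) and retina with at most 2.12 RPM. Zfp52 held 9.59 to 23.2 RPM in the lineage and at most 4.62 RPM elsewhere. Zfp429 held 8.00 to 19.9 RPM and at most 6.62 RPM elsewhere, and lost its call with a pseudocount of 5 RPM.

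**Figure D3:**
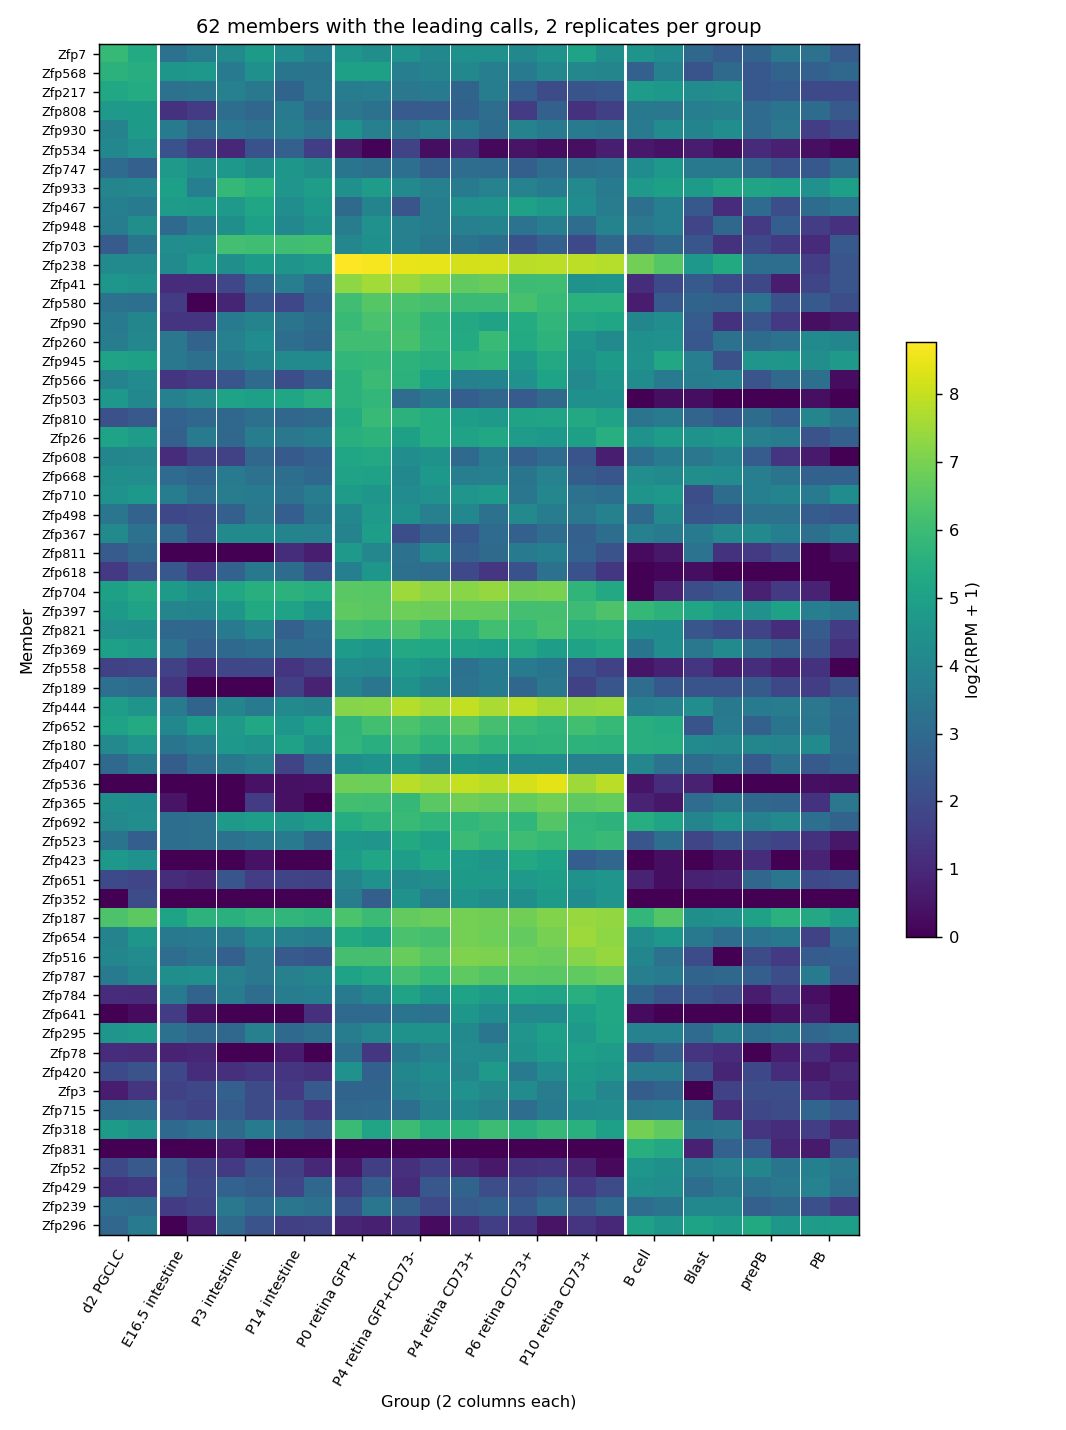
log2(RPM + 1) of the 62 members with the leading calls, in 26 libraries grouped by cell population (2 columns each) and ordered by the group with the highest mean. Most rows are brightest in the retinal columns, with Zfp831 and Zfp296 bright in B-lineage columns and Zfp703 in intestine.

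The 6 members with the smallest spread of group means still varied between groups. Over the 13 groups the group means of Zfp706 ran from 232 RPM in d2 PGCLC to 382 RPM in E16.5 intestine, those of Zfp207, a spindle protein, from 144.5 RPM in PB to 356.6 RPM in d2 PGCLC, and those of Zfp106 from 70.0 RPM in PB to 163.9 RPM in d2 PGCLC. Zfp275, Zfp51 and Zfp64 were the other 3, with group means of 9.94 to 22.0 RPM, 5.31 to 17.3 RPM and 15.5 to 45.1 RPM. Zfp91, a ubiquitin ligase outside these 6, ran from 60.8 RPM in PB to 253.4 RPM in P4 CD73+ retina, and Zfp598, a sensor of collided ribosomes, from 27.0 RPM in PB to 105.8 RPM at P6. Zfp42 (Rex1), Zfp57 (which guards imprints) and Zfp809 (which silences retroviruses) were not members, with highest group means of 11.7 RPM in d2 PGCLC, 3.73 RPM in d2 PGCLC and 4.65 RPM in B cells.

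Maturation was followed with limma within each lineage, and a change was called at a log2 difference of at least 1 with an adjusted p under 0.05. Most named members were picked for large differences, so a lack of overlap between their groups follows largely from that choice and adds no support. In the retina, P10 CD73+ cells were compared with P0 GFP+ cells, so that age and gate differ together, and with P4 CD73+ cells, where the gate is the same. The 2 comparisons share the P10 samples. From P0 to P10, 17 of 211 members tested rose (8.06%; 15.8 percent of all genes) and 29 fell (13.7%; 20.1 percent of all genes), with a median difference of -0.16 for members and -0.10 for all genes tested. From P4 CD73+ to P10, 2 rose (0.948%; 6.33 percent of all genes) and 15 fell (7.11%; 10.8 percent of all genes), with medians of -0.16 and -0.13. The shares of members called were thus under those of all genes in all 4 counts. Cell-cycle genes moved beside these changes: all 15 on the list (such as Mki67, Top2a and Ccnb1) fell from P0 to P10, with a median of -5.23, and 13 fell from P4 CD73+ to P10. Their summed level was 3084 and 3679 RPM at P0, 571 and 1108 RPM in P4 CD73+ and 244 and 261 RPM at P10. The 5 photoreceptor genes above summed to 2780 and 2473 RPM at P0, 7541 and 6659 RPM in P4 CD73+ and 11331 and 10550 RPM at P10. Of other retinal cells, 9 markers summed to 100.2 and 115 RPM at P0, where 2 of the 9 (Vsx1 and Lhx1) were at 0. They summed to 431 and 451 RPM in P4 CD73+, 620 and 580 RPM at P6 and 440.1 and 407 RPM at P10. From P0 to P10 the group mean of Rlbp1 rose from 13.6 to 163 RPM and that of Grm6 from 0.699 to 134 RPM. Slc6a9 rose from 38.1 to 80.3 RPM and Vsx1 from 0 to 12.6 RPM. Glul fell from 45.1 to 22.8 RPM, and Rbpms was at 8.87 and 8.05 RPM. Gad1 (1.13 and 1.75 RPM), Lhx1 (0 and 0.428 RPM) and Pou4f2 (0.226 and 0 RPM) stayed low. Prdm1 was at 486 and 481 RPM at P0 and 86.0 and 80.4 RPM at P10. Whether these genes have a part in the members' changes was not tested.

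Among the members that fell, Zfp608, known for repressing Rag genes in thymocytes, held 34.8 and 38.0 RPM at P0, 18.8 and 20.99 RPM in P4 GFP+CD73-, 7.07 and 11.9 RPM in P4 CD73+, 5.49 and 7.35 RPM at P6 and 3.90 and 0.673 RPM at P10. The groups at P0 and P10 did not overlap, and the log2 difference was -3.71 ± 0.43 (adjusted p = 2.19e-06). Against P4 CD73+ it was -1.83 ± 0.43, and this call was lost without P4 CD73+ replicate 2 (-1.50) or P10 replicate 2 (-1.06). Zfp41 held 153 and 185 RPM at P0, 173 and 146 RPM in P4 GFP+CD73-, 97.9 and 105 RPM in P4 CD73+, 63.5 and 65.4 RPM at P6, and 21.4 and 22.4 RPM at P10. Its differences were -2.89 ± 0.16 against P0 (adjusted p = 3.95e-10) and -2.16 ± 0.16 against P4 CD73+ (adjusted p = 1.11e-07).

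Zfp423, a partner of EBF factors, took another course. It stayed between 23.0 and 38.8 RPM in all 8 retinal libraries up to P6 and was at 5.19 and 6.39 RPM at P10 (-2.25 ± 0.25 against P0, adjusted p = 1.52e-06; -1.95 ± 0.25 against P4 CD73+, adjusted p = 2.78e-05). Zfp704 was highest between the ends, with 91.0 and 89.0 RPM at P0, 179 and 151 RPM in P4 GFP+CD73-, 147 and 164 RPM in P4 CD73+, 122 and 127 RPM at P6, and 52.1 and 38.4 RPM at P10. Its fall from P4 CD73+ was -1.77 ± 0.16 (adjusted p = 8.64e-07). Zfp668 (-2.58), Zfp618 (-2.40), Zfp558 (-2.24), Zfp808 (-1.90) and Zfp811 (-1.89) completed the 8 largest falls from P0. Zfp558 (-1.55), Zfp808 (-1.45), Zfp189 (-1.45) and Zfp710 (-1.40) also fell from P4 CD73+. Zfp808 was not called without P4 CD73+ replicate 2 (-1.25) or P10 replicate 1 (-1.24), nor with quantile normalization, and Zfp189 was not called without P4 CD73+ replicate 2 (-1.31) or P10 replicate 1 (-1.16).

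Of the members that rose, Zfp654 held 39.6 and 31.9 RPM at P0, 74.7 and 71.2 RPM in P4 GFP+CD73-, 122 and 113 RPM in P4 CD73+, 99.9 and 125 RPM at P6, and 180 and 154 RPM at P10 (2.198 ± 0.17 from P0, adjusted p = 1.68e-08). Zfp641 held 7.01 and 7.02 RPM at P0 and 29.6 and 37.4 RPM at P10 (2.10 ± 0.28, adjusted p = 8.67e-06). Zfp78 held 8.37 and 1.63 RPM at P0 and 29.6 and 26.9 RPM at P10, and its difference of 2.56 ± 0.43 was 1.64 without P0 replicate 2. All 3 were also retina-preferred, and for each the P0 and P10 samples did not overlap. Zfp784 (1.54), Zfp3 (1.53), Zfp787 (1.50), Zfp715 (1.32) and Zfp523 (1.26) were the next rises. Zfp445, a KRAB protein that helps keep imprints, rose by 1.01, to a group mean of 204 RPM at P10.

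Zfp503 (Nolz1, a NET family corepressor of striatal development) went down and up again: 48.6 and 55.3 RPM at P0, 7.86 and 10.6 RPM in P4 GFP+CD73-, 5.19 and 6.35 RPM in P4 CD73+, 4.76 and 7.16 RPM at P6, and 20.0 and 20.2 RPM at P10. It was called lower at P10 than at P0 (-1.33) and higher than in P4 CD73+ (1.65 ± 0.30, adjusted p = 6.55e-04). Zfp295, now Zbtb21, was the other member called higher than in P4 CD73+ (1.13), and that call was lost without P4 CD73+ replicate 2 (0.76) or P10 replicate 2 (0.91).

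**Figure D4:**
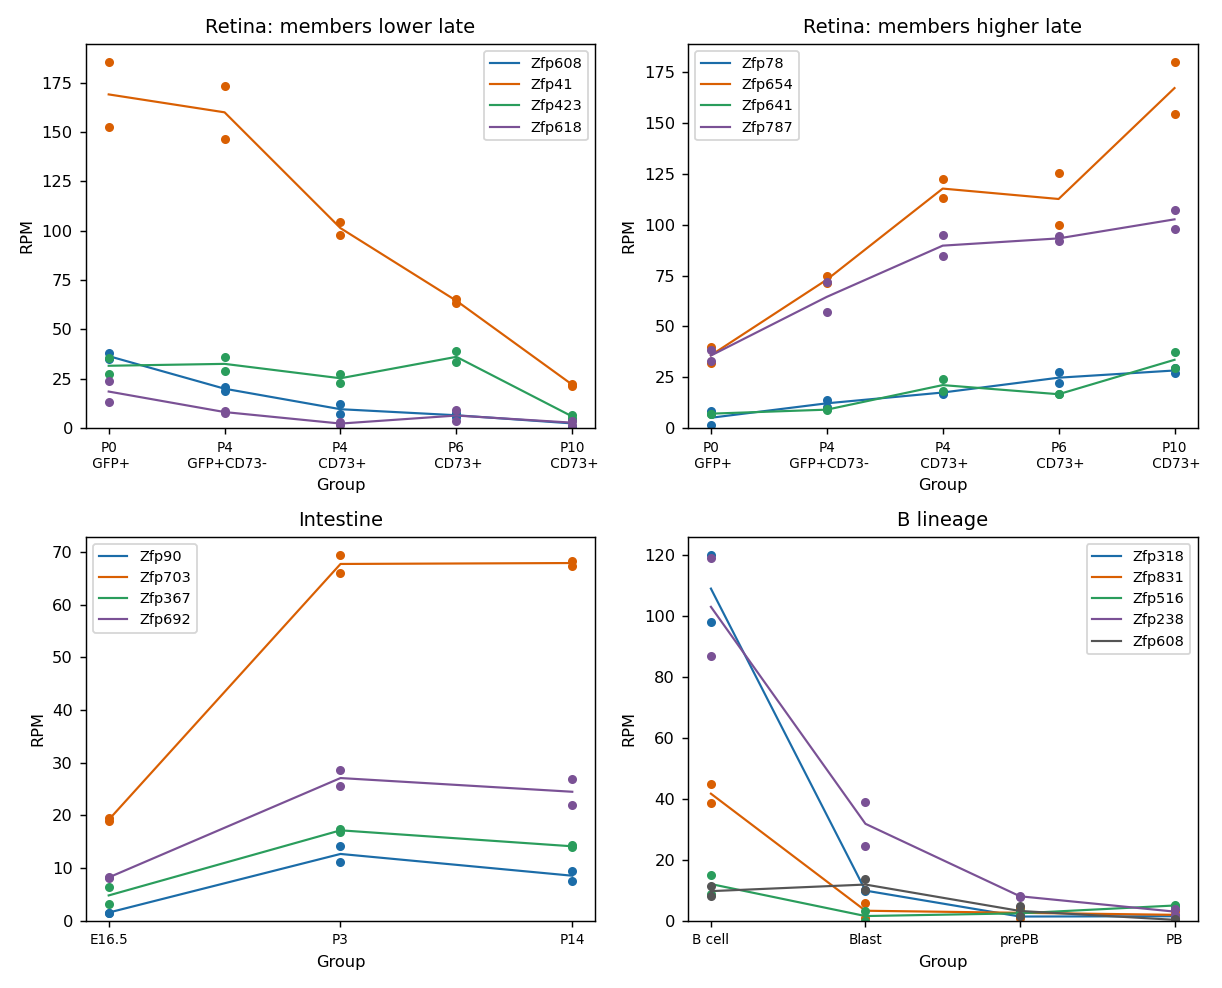
RPM of selected members along the groups of retina (top), intestine (bottom left) and B lineage (bottom right); points are libraries and lines join group means. Zfp41 falls from 153 and 185 RPM at P0 to 21.4 and 22.4 RPM at P10, Zfp654 climbs to 180 and 154 RPM, and Zfp318 drops from 120 and 98.0 RPM in B cells to about 10 RPM in Blast.

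In the intestine, all members called between E16.5 and P3 were higher at P3, a comparison in which age and the BLIMP1 gate differ together. The share called higher was close to that of all genes. Of 162 members tested, 19 rose (11.7%; 12.6 percent of all genes) and 0 fell (8.2 percent of all genes); at an unadjusted p under 0.05 in limma, 41 were higher and 2 lower. The share of all genes at that unadjusted cut was not computed, here or for the counts at it given below. The median difference was 0.35 for members and 0.11 for all genes tested, with 25 members below 0. With median-of-ratios scaling 10 rose and 0 fell, against 10.7% and 9.64% of all genes, and in a fit of all 26 samples 1 fell. Of 15 cell-cycle genes, 12 rose as well, and their sum went from 903 and 987 RPM to 2073 and 2466.5 RPM. Their part in the members' rise was not tested. Zfp90, a KRAB protein, held 1.54 RPM in both E16.5 libraries, 11.2 and 14.1 RPM at P3 and 9.46 and 7.62 RPM at P14 (2.42 ± 0.40 from E16.5 to P3, adjusted p = 3.98e-05). Zfp703 rose by 1.77 ± 0.20 (adjusted p = 2.56e-07), from the values given above. Zfp692 held 8.08 and 8.34 RPM at E16.5, 25.6 and 28.6 RPM at P3, and 22.0 and 27.0 RPM at P14 (1.61 ± 0.28, adjusted p = 8.46e-05). Zfp367 held 6.35 and 3.24 RPM, then 17.5 and 16.8 RPM, then 14.3 and 13.9 RPM (1.70). In these 4, picked for large differences, the E16.5 and P3 samples did not overlap.

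Zfp808 (1.62), Zfp239 (1.61), Zfp948 (1.36) and Zfp933 (1.36) completed the leading rises at P3. The call of Zfp808 was lost without P3 replicate 1 (1.48), that of Zfp948 without P3 replicate 2 (1.08) and that of Zfp933 without E16.5 replicate 2 (0.77). Without P3 replicate 2, 12 members in all rose. Between P3 and P14, both labelled BLIMP1-negative but with the Prdm1 levels given above, few members were called: 0 rose (1.99 percent of all genes) and 1 of 162 fell (0.617%; 2.4 percent of all genes), and at an unadjusted p under 0.05 in limma 6 were higher and 6 lower. The comparison shares the P3 samples with the one before. The 1 member was Zfp407, with 10.8 and 13.1 RPM at P3 and 2.44 and 5.96 RPM at P14 (-1.40 ± 0.42, adjusted p = 0.0367). It was not called without P3 replicate 1 (-1.53), without P3 replicate 2 (-1.26) or without P14 replicate 1 (-0.89).

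In the B lineage, a larger share of members than of all genes fell from resting B cell to Blast in RPM. After quantile normalization the share of members called lower was close to that of all genes. From resting B cell to Blast, 1 of 169 members rose (0.592%; 12.3 percent of all genes) and 51 fell (30.2%; 21.8 percent of all genes). The median difference was -0.72 for members and -0.18 for all genes tested, and 140 of 169 members lay below 0. With median-of-ratios scaling 1 rose and 43 fell, against 14.8% and 18.4% of all genes, with medians of -0.57 for members and -0.04 for all genes. With quantile normalization 5 rose and 30 fell, against 17.4% and 16.7% of all genes, with medians of -0.32 and 0.03. A gene could enter this fit through its B cell samples alone, which holds for members and for all genes tested. Without a filter on low values fewer members were called lower, as given in the part on processing, and no share of all genes is given for it. Without B cell replicate 2 the falls numbered 29, and without B cell replicate 1 they numbered 33. Other lists moved beside them. Of the cell-cycle genes, 13 of 15 rose, from sums of 981 and 1021 RPM to 2596 and 3108 RPM. Markers of T, NK and myeloid cells (7 genes) summed to 333 and 437 RPM in B cells, where none was at 0. In Blast they summed to 5.33 and 13.3 RPM, and 2 of the 7 were at 0. By group mean, Tyrobp (247 RPM), Nkg7 (64.2 RPM) and Fcer1g (49.1 RPM) made most of the B-cell sum. Lyz2, Cd3g, Cd3e and Cd14 were at 11.9, 10.8, 1.25 and 0.525 RPM there. The part of either list in the members' fall was not tested.

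Zfp318, which is needed for IgD expression in mature B cells, held 120 and 98.0 RPM in B cells, 9.65 and 10.1 RPM in Blast, 1.53 and 1.199 RPM in prePB and 1.98 and 0.937 RPM in PB. It fell by 3.33 ± 0.35 from B cell to Blast (adjusted p = 2.66e-06) and by 2.18 ± 0.35 from Blast to PB (adjusted p = 1.11e-04), 2 comparisons that share the Blast samples. Zfp831 held 44.9 and 38.5 RPM in B cells and 0.761 and 5.78 RPM in Blast (-3.62 ± 0.63, adjusted p = 2.67e-04). Zfp516, known as an activator of brown fat genes, held 15.2 and 8.91 RPM in B cells and 3.05 and 0 RPM in Blast; its difference of -2.65 was -1.65 without Blast replicate 2. Zfp652 held 43.7 and 40.9 RPM in B cells and 3.81 and 11.3 RPM in Blast (-2.49 ± 0.41, adjusted p = 1.76e-04). In these 4, picked for large differences, the 2 groups did not overlap. Zfp90 (-2.24), Zfp420 (-2.21), Zfp821 (-2.15) and Zfp710 (-2.01) followed. The single rise was Zfp365, a centrosomal protein, with 0.809 and 0.482 RPM in B cells and 7.87 and 10.4 RPM in Blast (2.62 ± 0.55, adjusted p = 1.14e-03).

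From Blast to PB, 7 of 169 members rose (4.14%; 6.66 percent of all genes) and 44 fell (26%; 30.9 percent of all genes). These falls went with the scale of the PB libraries: complete gene lines summed to 688942 and 650799 RPM in PB and to 960060 and 954939 RPM in Blast, and the median difference was -0.64 for all genes tested and -0.55 for members. With median-of-ratios scaling 12 members rose and 14 fell, with medians of 0.04 for members and -0.05 for all genes and with 12.8% and 11.4% of all genes called, and with quantile normalization 12 rose and 11 fell (12% and 10.9% of all genes). As a share of the complete lines, members made up 0.325% and 0.329% in PB, 0.315% and 0.324% in prePB, 0.348% and 0.346% in Blast, and 0.545% in each B cell library. Relative to the other genes, then, the members' level differed more between B cell and Blast than between Blast and PB.

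The 8 largest falls to PB were called in RPM and with both other scalings. Zfp608 held 10.2 and 13.6 RPM in Blast and 0.567 and 0 RPM in PB (-3.35 ± 0.45, adjusted p = 2.93e-05). Zfp238 went from 119 and 87.1 RPM in B cells to 24.6 and 39.0 RPM in Blast, 7.94 and 8.09 RPM in prePB, and 1.98 and 3.98 RPM in PB (-3.05 ± 0.33 from Blast to PB, adjusted p = 3.16e-06), so that none of the 4 groups overlapped. Zfp217 held 17.8 and 19.4 RPM in Blast and 2.84 and 2.81 RPM in PB (-2.35 ± 0.31, adjusted p = 2.34e-05). Zfp930 (-2.36), Zfp239 (-2.26), Zfp26 (-2.10) and Zfp369 (-2.10) were similar in size. Among the factors with a general role, Zfp622, which acts in assembly of the large ribosomal subunit, fell by 1.53, Zfp281 by 1.41 and Zfp326, a splicing factor, by 1.26. With median-of-ratios scaling their differences were -0.89, -0.78 and -0.65, and none of the 3 was called with it or with quantile normalization.

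The rises to PB were less stable. Zfp945 held 12.4 and 3.47 RPM in Blast and 19.4 and 25.5 RPM in PB (1.59 ± 0.42, adjusted p = 4.77e-03), and its difference was 0.79 and not called without Blast replicate 2. Zfp516 (1.57) was not called without Blast replicate 2 (0.56), PB replicate 1 (1.61) or PB replicate 2 (1.53), Zfp467 (1.47) not without Blast replicate 2 (0.82) or PB replicate 2 (1.35), Zfp710 (1.36) not without Blast replicate 1 (0.87) or PB replicate 2 (1.06), and Zfp260 (1.25) not without Blast replicate 1 (0.78). Zfp651 (1.16) was lost when any 1 of the 4 libraries was left out, and Zfp810 (1.06) without Blast replicate 2 (0.83) or PB replicate 1 (0.79). The count of rises was 2 without Blast replicate 2, 4 without PB replicate 1 and 3 without PB replicate 2.

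**Figure D5:**
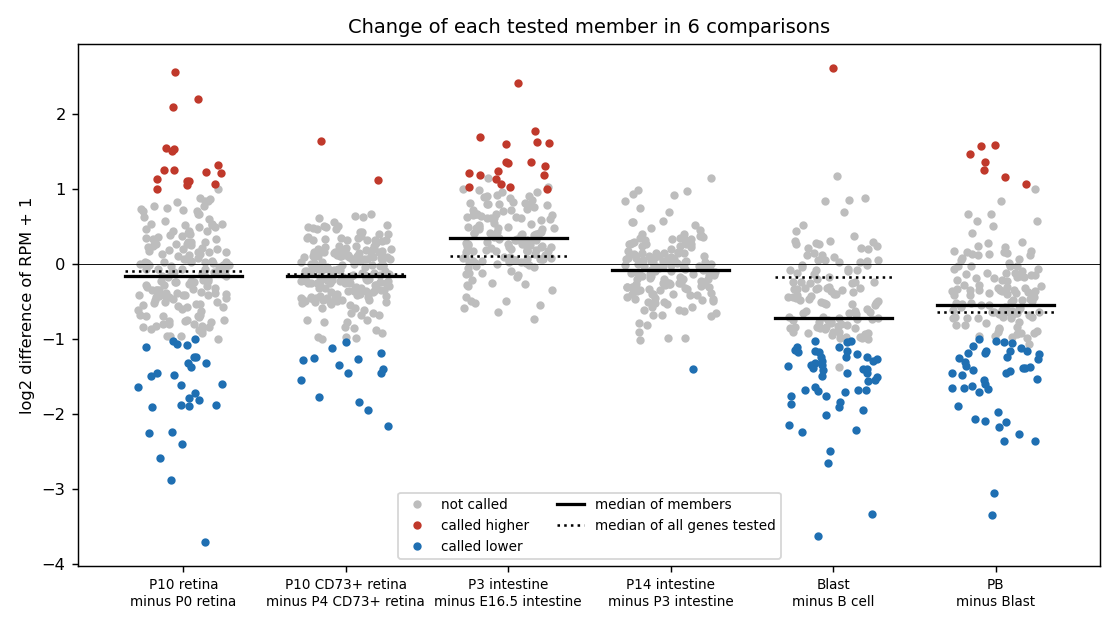
log2 difference of RPM + 1 for each tested member in 6 comparisons; red and blue points are called higher and lower, solid lines mark the median of members and dotted lines the median of all genes tested. The members' median lies at -0.72 in Blast minus B cell, under the -0.18 of all genes, and at 0.35 in P3 minus E16.5 intestine.

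Protein patterns were read from the longest open reading frame of each gene's coding transcripts, found for 213 members. The median was 10 C2H2 fingers per protein, with a range of 0 to 36, and 86 proteins (40.4%) had a KRAB pattern and 12 a SCAN pattern. Zfp703, Zfp503, Zfp330, Zfp259 (now Zpr1), Zfp365 and Zfp781 had no finger by the pattern used. Retina was preferred by 47 of 86 members with a KRAB pattern (54.7%) and by 57 of 127 without (44.9%). From B cell to Blast, 19 of 66 tested members with the pattern and 32 of 101 without fell, with medians of -0.73 and -0.53. From P0 to P10 retina, 4 of 84 with the pattern rose and 9 fell, and 13 of 125 without it rose and 20 fell. From E16.5 to P3 intestine, 8 of 57 with it and 11 of 103 without rose. These differences between classes were not tested. A KRAB box that departs from the pattern is counted as absent, so the class without it may hold KRAB proteins.

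The partners through which KRAB proteins act were followed in a list of 20 genes, of which 19 were found. TRIM28, the KRAB-binding corepressor, was called lower at P10 than at P0 (-1.54) and P4 CD73+ (-1.09). It was also called lower in PB than in Blast in RPM (-1.19). In that comparison the median of all genes tested was -0.64 and 30.9% of them were called lower. From P0 to P10 retina 5 of 19 partners fell and 0 rose, beside 20.1% and 15.8% of all genes, with Uhrf1 (-4.69) and Cbx5 (-2.51) at the lead; at an unadjusted p under 0.05 in limma, 2 were higher and 10 lower, and with median-of-ratios scaling 1 rose and 4 fell. From P4 CD73+ to P10, 5 fell and 0 rose, beside 10.8% and 6.33% of all genes, with 9 lower and 0 higher at an unadjusted p under 0.05. From E16.5 to P3 intestine 5 of 18 rose and 0 fell, beside 12.6% and 8.2% of all genes, led by Dnmt1 (2.02), with 12 higher and 0 lower at an unadjusted p under 0.05; with quantile normalization 5 rose and 1 fell. From P3 to P14, 0 of 18 were called in limma, with 0 higher and 4 lower at an unadjusted p under 0.05.

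From B cell to Blast, 3 of 19 partners rose, beside 12.3% of all genes, namely Uhrf1 (2.70), Cbx3 (1.74) and Cbx5 (1.46), which read or copy silent chromatin in dividing cells, and 1 fell, Atf7ip (-1.18), beside 21.8% of all genes. From Blast to PB 14 of 19 fell and 0 rose, beside 30.9% and 6.66% of all genes, with 18 lower and 0 higher at an unadjusted p under 0.05 in limma, but with median-of-ratios scaling or quantile normalization 2 fell and 0 rose. Hdac1 (-2.05) was the largest of these falls. Hdac1 and Cbx5 were the 2 partners called as preferred in d2 PGCLC (1.32 and 1.17).

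Zfp genes are known to lie in clusters that arose by duplication. Chromosome 7 carried 47 members, of which 28 were retina-preferred, chromosome 17 carried 24 with 10, chromosome 8 carried 19 with 10 and chromosome 6 carried 15 with 9. With starts at most 1 Mb (1000000 bases) apart, 11 members lay at chr17:21008941-23564226 (10 with the KRAB pattern, 3 retina-preferred). Another 11 lay at chr7:29768552-30169775 (7 with the pattern, 6 retina-preferred). Groups of 10 lay at chr17:32765496-33631716 (8 with the pattern, 6 retina-preferred) and chr6:47835633-48621548 (1 with the pattern, 8 retina-preferred). In the chr6 group, Zfp783 and Zfp862 had no reading frame to search. These were the largest groups. The next was 8 members at chr7:127233061-127876836, of which 3 were retina-preferred. Of 4 groups of 5 members, that at chr7:6131489-6396637 (Zfp787, Zfp444, Zfp667, Zfp78 and Zfp28) had 5 retina-preferred members, and those at chr15:75615200-76925693, chr7:4915181-5053723 and chr9:19622038-20605404 had 3, 3 and 2. Of all members 49.3% were retina-preferred. By contrast, the B-lineage gene Zfp52 lies in the first of these clusters and the PGCLC gene Zfp568 in the second. Neighbours may share reads through similar sequence, and whether position and preference are linked was not tested.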

How the data were processed

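The deposited table gives an expression signal in RPM per gene and library, made by the authors with cutadapt 1.11, TopHat 1.4.1, Bowtie 1.0.1 and Cufflinks 2.2.0 on mm10, per the submitters' processing notes. The treatment of reads that match several genes is not given in the sources read. Of 26310 lines, 1164 had missing or moved values (92 of them spike-ins) and were left out. The step of low values gave each library's depth; whole multiples of 1 read (within 0.02 reads) made up 82.9 to 91.3% of low values of at least 1 read, so no count test was used.

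Sums of retinal markers cover 5 and 9 genes; 1 further gene of each list is not reported here. Members and gene lists were chosen with earlier results of these data known. limma 3.58.1 (R 4.3.3) was fitted to log2(RPM + 1) with a trended variance, over all 26 samples for lineage preference and within a lineage for maturation (8, 6 and 10 samples). Genes entered a fit at 5 RPM or more in 2 or more of its samples. A log2 difference of RPM + 1 understates the change of low genes. Two-sided p-values were adjusted over all genes tested (Benjamini-Hochberg). On simulated data, 82 to 94.5% of 200 genes changed by 2 on the log2 scale were recovered, with 0 in the wrong direction. Among the unchanged genes there were 1 to 12 false calls per comparison. The changed genes were drawn above a set mean level, with normal noise of the spread in the fit. Recovery of lower genes and of smaller changes was not tested. Text names up to 8 members per comparison and direction and 6 per lineage, the 6 flattest, and a list set by name; genes outside that rule (other named partners, chromosome clusters) were chosen after their values were seen. Protein patterns were read from GENCODE M21 coding transcripts in place of RefSeq proteins; positions and promoters came from RefSeq GRCm38.p6. Alternatives were other pseudocounts, filters, scalings, thresholds and fits, a replicate block, and leaving out each replicate. Other steps ran in Python 3.11.15 (pandas 2.3.3, NumPy 2.4.6, and matplotlib 3.10.9 for plots).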

Additional observations from a re-analysis of the deposited data

Results flagged for a closer look

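Some members were called in opposite directions in 2 lineages, and the difference between the 2 log2 changes, tested with limma in the fit of all 26 samples, was itself called, with adjusted p from 7.41e-08 to 0.00664. The members were picked by their opposite calls in these same samples, so a large difference follows from that choice and its test adds no support. The share of all genes called in opposite directions was not computed. The lineages also differ in age, sort and tissue, which cannot be told apart from lineage. Differences below are the first change minus the second, on the log2(RPM + 1) scale.

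Lower in Blast than in B cell and higher in P10 than in P0 retina were Zfp516 (-3.76), Zfp3 (-3.37), Zfp420 (-3.35), Zfp654 (-3.34), Zfp187 (-2.95), Zfp715 (-2.81) and Zfp329 (-2.26). With median-of-ratios scaling both changes of each stayed called, except for Zfp654. Lower in Blast than in B cell and higher in P3 than in E16.5 intestine were Zfp90 (-4.66), Zfp692 (-2.64), Zfp948 (-2.60), Zfp180 (-2.46) and Zfp498 (-2.38), and of these the Zfp90 changes alone stayed called with that scaling.

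Higher in P3 than in E16.5 intestine and lower in P10 than in P0 retina were Zfp41 (4.20), Zfp618 (3.62), Zfp703 (3.58), Zfp808 (3.52), Zfp367 (3.16), Zfp566 (2.72) and Zfp503 (2.35). Zfp41 (3.47) and Zfp808 (3.07) were also lower in P10 than in P4 CD73+ retina, a comparison that shares the P10 samples, and the latter call of Zfp808 was lost without P4 CD73+ replicate 2 (-1.25) or P10 replicate 1 (-1.24). With median-of-ratios scaling both changes stayed called for Zfp703, Zfp808 and Zfp367.

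Higher in PB than in Blast and lower in P10 than in P0 retina were Zfp260 (2.97), Zfp710 (2.85) and Zfp945 (2.83), and the same 3 were lower in P10 than in P4 CD73+ retina, with differences of 2.52, 2.75 and 2.70. With median-of-ratios scaling Zfp945 lost a call against P4 CD73+ alone. Their rises to PB were not called when 1 Blast library was left out, as given in the report. Lower in PB than in Blast and higher in P3 than in E16.5 intestine were Zfp239 (-3.88), Zfp90 (-3.88), Zfp566 (-3.22), Zfp692 (-2.87), Zfp808 (-2.64) and Zfp397 (-2.39), and with that scaling both changes stayed called for Zfp239 alone.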

How the results depend on the processing

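Counts of members depended on scaling, pseudocount, filter and single libraries. No share of all genes is given for the other pseudocounts, filters and fits or for libraries left out. These counts therefore cannot tell a change in the members from one in all genes. With a pseudocount of 5 RPM, 1 member was higher and 26 lower in PB than in Blast, 6 higher at P3 than at E16.5, 0 lower at P14, 9 higher at P10 than at P0, 1 higher and 9 lower at P10 than in P4 CD73+, and 1 preferred in intestine. Without a filter, 0 were higher and 27 lower in Blast than in B cell, 0 higher and 29 lower in PB, 4 higher at P3, 0 lower at P14 and 1 higher at P10 than in P4 CD73+. With at least 10 RPM in 2 samples, 4 were higher in PB and 12 at P3. With median-of-ratios scaling, 12 were higher and 14 lower in PB, 10 higher at P3, 1 higher and 0 lower at P14, and 65 preferred in retina. With quantile normalization, 5 were higher and 30 lower in Blast, 12 higher and 11 lower in PB, 9 higher at P3, 1 higher at P14 and 54 preferred in retina. In a fit of all 26 samples, 3 were higher in Blast, 1 lower at P3 and 2 lower at P14. Among the 139 members at 30 RPM, 4 were higher in PB, 12 at P3, 9 at P10 than at P0 and 1 at P10 than in P4 CD73+, 0 were lower at P14, and 3, 1 and 2 were preferred in PGCLC, intestine and the B lineage. Over all Zfp-named lines tested, 9 were preferred in PGCLC.

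Leaving out 1 replicate, with the lone sample assumed to vary like the other groups, gave 1 to 2 higher and 29 to 47 lower in Blast, 2 to 6 higher and 36 to 43 lower in PB, 12 to 17 higher and 0 to 1 lower at P3, 0 to 1 lower at P14, 16 to 18 higher and 29 to 31 lower at P10 than at P0, and 1 to 2 higher and 12 to 19 lower at P10 than in P4 CD73+. Retina was preferred by 102 to 109 members. Of 1255 alternative values for the 76 results on named members, 1179 kept direction and call, 76 lost the call and 0 reversed. Except where fewer samples or members entered, the cause was not tested. Members at 15 RPM rest on 25.8 to 90.6 reads, so lower levels are less precise.

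With the replicate number as a block, counts equalled those without it, such as 51 lower in Blast and 106 preferred in retina, except for 17 higher at P3. Same-numbered samples share a number only: their deviations correlated at 0.012 to 0.196 in the B lineage, -0.054 to 0.035 in intestine and -0.031 to 0.284 in retina.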

Other observations

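Zfp423 was shared by retina and d2 PGCLC. It held 24.5 and 20.4 RPM in d2 PGCLC, near the 23.0 to 38.8 RPM of retina up to P6, and at most 1.22 RPM in any intestinal or B-lineage library. Zfp365, the 1 member called higher in Blast than in B cell, was far higher in retina and d2 PGCLC, with 66.4 to 69.0 RPM at P0 and 95.1 to 102 RPM at P10 in retina, and 19.8 and 18.2 RPM in d2 PGCLC. In intestine it was at most 1.85 RPM.

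Within the stimulated B lineage, Zfp651 was highest in prePB, with 6.41 and 9.89 RPM, between Blast with 0.761 and 0.867 RPM and PB with 2.84 and 3.28 RPM. Zfp800 held 45.7 and 35.5 RPM in Blast, 22.6 and 12.6 RPM in prePB and 11.9 and 8.67 RPM in PB, and fell by 1.89 from Blast to PB (limma). Zfp292, a large zinc finger protein, held 62.9 and 54.7 RPM in B cells, 21.6 and 17.3 RPM in Blast and 12.2 RPM in each PB library, and fell by 1.55 from B cell to Blast. For each of these 3 members the groups named did not overlap, but not every group of the lineage is named for each. The share of all genes without overlap was not computed for these groups, so this adds no support.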
